A study of Mus musculus with 6 samples.

Results

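The 9 genes described here are 7 heat shock genes, *Hspa1a*, *Hspa1b*, *Hspa8*, *Hsph1*, *Dnajb1*, *Hsp90aa1* and *Hspb1*, and 2 cold-inducible genes, *Cirbp* and *Rbm3*. They were taken by gene symbol from the table of read counts, which holds 54532 genes, and all 9 were among the 18689 genes that passed the filter on low counts. Perfused whole lungs of 3 wild-type (WT) and 3 *ISM1*-/- mice were sequenced, 1 library for each mouse. All mice were 2 months old, untreated and of the C57BL/6J strain, and the *ISM1*-/- mice carry a knockout of *Ism1*, which encodes the secreted protein isthmin-1. The *ISM1*-/- mice came from the study's own colony and the WT mice from a supplier, and the effect of genotype cannot be told apart from that of origin. Whole lung is a mixture of cells, so fewer cells of a type and less RNA per cell cannot be told apart either.

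Heat shock proteins are chaperones that bind unfolded proteins. In a stressed cell, heat shock factor 1 (HSF1) is released from chaperones and binds heat shock elements, inverted repeats of the unit GAA, in the promoters of these genes, so their transcripts rise within minutes of heat or proteotoxic stress. CIRBP and RBM3 are RNA-binding proteins whose transcripts rise when body or culture temperature falls slightly and drop when it rises, and both sets of genes follow the daily rhythm of body temperature in mouse tissues.

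None of the genes passed the test between the genotypes. In edgeR's quasi-likelihood test 0 of 9 members had an adjusted p under 0.1, here termed called, beside 4.72% of all genes tested (1.38% higher and 3.34% lower in *ISM1*-/-). None of the 9 was called with at least a 2-fold change, beside 0.567% of all genes. At an unadjusted p under 0.05 there was 1 member, *Hspa8*, by edgeR and by DESeq2, beside 15.8% of all genes by edgeR. For each member the libraries of both genotypes overlapped, whereas 21.6% of all genes had no overlap. The estimates were higher in *ISM1*-/- lungs for 4 members and lower for 5, with a median log2 fold change (*ISM1*-/- over WT) of -0.05 over the members and 0.00 over all genes tested. The libraries of 1 genotype differed from each other, and 7 of the 9 members had a within-genotype spread above the 90th percentile of genes of like level.

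Total counts ranged from 37606133 to 42345042 per library. The targeted gene *Ism1* was still counted in the *ISM1*-/- libraries, at 65.4, 66.0 and 75.6 CPM (read counts scaled by the library total, with TMM factors) beside 82.1, 77.4 and 76.9 CPM in WT, with a log2 fold change of -0.19 (SE 0.07, edgeR adjusted p = 0.217). The count of *Ism1* therefore does not check the genotype, which rests on the labels. The summed level of 12 lung markers was 47892, 48523 and 50056 CPM in WT and 40997, 42316 and 43472 CPM in *ISM1*-/- lungs. Its largest parts were *Scgb1a1*, called lower in *ISM1*-/- lungs, and *Sftpc*, not called.

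HSPA1A and HSPA1B are the stress-inducible cytosolic HSP70 proteins, encoded by a pair of neighbouring genes on chromosome 17 of GRCm38. *Hspa1a* (ENSMUSG00000091971, chr17:34969190-34972156, minus strand) and *Hspa1b* (ENSMUSG00000090877, chr17:34956436-34959238, minus strand) are near-identical, with 8 of 1926 aligned coding positions different (99.6% identical). Of all 150-base windows of the *Hspa1a* transcript, 38.1% also occur in the *Hspa1b* transcript, so reads there cannot be assigned to 1 gene and the counts of each gene are uncertain. Their promoters differed at 3 of the 250 bases before the start of transcription. The RefSeq sequences (GRCm38.p6, minus strand) of the 150 bases before the start, at chr17:34972157-34972306 for *Hspa1a* and chr17:34959239-34959388 for *Hspa1b*, are shown because both hold a heat shock element pair and the reverse of the cold element letters described for *Cirbp*. The capitals mark the cold element letters, 137 bases before the start, and the units of the heat shock pair, 104 bases before it.
Hspa1a: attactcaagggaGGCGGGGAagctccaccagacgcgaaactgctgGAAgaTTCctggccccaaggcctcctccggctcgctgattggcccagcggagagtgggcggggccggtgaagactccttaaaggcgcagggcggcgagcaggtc
Hspa1b: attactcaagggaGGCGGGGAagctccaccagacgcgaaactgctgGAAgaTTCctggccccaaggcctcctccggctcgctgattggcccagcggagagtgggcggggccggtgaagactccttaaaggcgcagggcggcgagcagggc

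For *Hspa1a* the TMM-scaled values were 6.02, 10.8 and 6.59 CPM in WT and 8.08, 4.50 and 6.66 CPM in *ISM1*-/- lungs, from counts of 171 to 448. The highest library was WT 2 and the lowest was *ISM1*-/- 2. The means were 7.80 ± 2.60 in WT and 6.41 ± 1.80 CPM in *ISM1*-/- lungs (SD, n = 3 each), with a log2 fold change of -0.28 (SE 0.25, edgeR adjusted p = 0.657). *Hspa1b* stood at 6.78, 13.9 and 7.08 CPM in WT and at 7.38, 6.85 and 7.55 CPM in *ISM1*-/- lungs, from counts of 256 to 579. WT 2 was again the highest, and its value was 2.05 times that of WT 1, while the *ISM1*-/- libraries lay within 1.10-fold of each other. The log2 fold change of *Hspa1b* was -0.35 (SE 0.24, edgeR adjusted p = 0.538). The counts of both genes were also added, which removes the question of how shared reads were split between them. Adding does not restore shared reads that the counting may have dropped, and their treatment is not given in the sources used here. The level of the sum was 12.8, 24.7 and 13.7 CPM in WT and 15.5, 11.3 and 14.2 CPM in *ISM1*-/- lungs. The log2 fold change of the sum was -0.32 (SE 0.23, 95% interval -0.83 to 0.19, edgeR adjusted p = 0.555). Without WT 2, the log2 fold change was 0.03 for *Hspa1a* and 0.07 for *Hspa1b*. Without *ISM1*-/- 2, the lowest library of *Hspa1a*, it was -0.08 for *Hspa1a* and -0.31 for *Hspa1b*. A gene on the opposite strand, *Gm20481*, overlaps *Hspa1a*, with a mean of 23.2 counts, and whether the counting used the strand is not given in the sources used here.

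HSPA8 is the constitutive cytosolic HSP70, used for folding of new proteins, uncoating of clathrin vesicles and chaperone-mediated autophagy. *Hspa8* (ENSMUSG00000015656, chr9:40800984-40810087, plus strand) was at 566, 735 and 704 CPM in WT and at 748, 729 and 917 CPM in *ISM1*-/- lungs. *ISM1*-/- 3 was the highest library and WT 1 the lowest, and the genotypes overlapped only through WT 2, which lay above *ISM1*-/- 2. The means were 668 ± 89.96 in WT and 798 ± 104 CPM in *ISM1*-/- lungs (SD, n = 3 each). Its log2 fold change was 0.26 (SE 0.11, 95% interval 0.00 to 0.51), with an edgeR adjusted p = 0.305 and a DESeq2 adjusted p = 0.173. It was the only member that any alternative called: with every detected gene kept in the edgeR test, the adjusted p was 0.0752. Without WT 1 the log2 fold change was 0.15 (edgeR adjusted p = 0.552), and without *ISM1*-/- 3 it was 0.15 (edgeR adjusted p = 0.494). The *Hspa8* introns host *Snord14c*, *Snord14d* and *Snord14e*, small nucleolar RNA genes that had 0 counts in all libraries.

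HSPH1 (HSP105) and DNAJB1 (HSP40) work with HSP70: the first releases ADP from it, and the second delivers clients and stimulates its ATPase. *Hsph1* (ENSMUSG00000029657, chr5:149614287-149636376, minus strand) has a heat shock element pair 54 bases before its first RefSeq start, in capitals in the 100 bases at chr5:149636316-149636415 (GRCm38.p6, minus strand), which are shown for comparison with the HSP70 pair.
Hsph1: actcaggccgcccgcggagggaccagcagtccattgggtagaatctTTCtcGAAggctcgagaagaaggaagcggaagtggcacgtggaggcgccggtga

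*Hsph1* was at 37.0, 59.7 and 53.4 CPM in WT and at 50.9, 42.5 and 67.8 CPM in *ISM1*-/- lungs. The lowest library was WT 1 and the highest *ISM1*-/- 3, 1.83 times as high. The log2 fold change was 0.10 (SE 0.19, 95% interval -0.32 to 0.52, edgeR adjusted p = 0.858), and it was -0.07 without WT 1 and -0.10 without *ISM1*-/- 3. *Dnajb1* (ENSMUSG00000005483, chr8:83608193-83612653, plus strand) was at 35.4, 51.5 and 46.9 CPM in WT and at 43.7, 38.4 and 47.5 CPM in *ISM1*-/- lungs. WT 2 was the highest library and WT 1 the lowest, as for *Hspa1b*. Its log2 fold change was -0.05 (SE 0.13, edgeR adjusted p = 0.913), and 0.07 without WT 2. No heat shock element pair was found in the *Dnajb1* windows.

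HSP90AA1 is the stress-inducible cytosolic HSP90, a chaperone of kinases and steroid receptors. *Hsp90aa1* (ENSMUSG00000021270, chr12:110690605-110702728, minus strand) was at 288, 345 and 345 CPM in WT and at 301.0, 287 and 408 CPM in *ISM1*-/- lungs. Only *ISM1*-/- 3 stood above the WT range, and WT 1 and *ISM1*-/- 2 were the lowest. The means were 326 ± 32.8 in WT and 332 ± 66.4 CPM in *ISM1*-/- lungs (SD, n = 3 each), with a log2 fold change of 0.02 (SE 0.13, 95% interval -0.26 to 0.31, edgeR adjusted p = 0.954). Without WT 1 it was -0.05 and without *ISM1*-/- 3 it was -0.15.

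HSPB1 is a small heat shock protein that holds unfolded proteins without ATP and binds actin. *Hspb1* (ENSMUSG00000004951, chr5:135887919-135889563, plus strand) has 2 heat shock element pairs, 117 and 97 bases before the RefSeq start, in capitals in the 100 bases at chr5:135887769-135887868 (GRCm38.p6, plus strand). Among the members whose promoter was searched, which leave out *Hspa8*, *Hsp90aa1* and *Rbm3*, only *Hspb1* had 2 separate pairs.
Hspb1: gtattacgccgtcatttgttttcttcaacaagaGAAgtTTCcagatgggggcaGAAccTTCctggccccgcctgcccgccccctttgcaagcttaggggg

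*Hspb1* was at 53.3, 62.1 and 51.3 CPM in WT and at 62.8, 51.1 and 55.8 CPM in *ISM1*-/- lungs. It varied least among the heat shock genes, 1.23-fold from the lowest to the highest library, and its highest library, *ISM1*-/- 1, was the highest of no other member. The log2 fold change was 0.03 (SE 0.09, 95% interval -0.18 to 0.24, edgeR adjusted p = 0.934).

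CIRBP and RBM3 bind RNA and affect its stability, splicing and translation. *Cirbp* (ENSMUSG00000045193, chr10:80165985-80172786, plus strand) holds the 8 letters of its cold element 247 bases before the first RefSeq start, in capitals in the 100 bases at chr10:80167589-80167688 (GRCm38.p6, plus strand), a window inside the deposited gene model. These letters are the reverse complement of those in capitals upstream of *Hspa1a* and *Hspa1b*.
Cirbp: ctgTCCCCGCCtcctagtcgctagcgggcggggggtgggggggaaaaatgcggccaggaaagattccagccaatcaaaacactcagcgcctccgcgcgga

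*Cirbp* was at 132, 94.7 and 91.4 CPM in WT and at 99.9, 107 and 75.3 CPM in *ISM1*-/- lungs. Its highest library was WT 1, the lowest for 4 of the 7 heat shock genes, and its lowest was *ISM1*-/- 3, the highest for 3 of them. The means were 106 ± 22.3 in WT and 93.9 ± 16.4 CPM in *ISM1*-/- lungs (SD, n = 3 each), with a log2 fold change of -0.17 (SE 0.15, 95% interval -0.52 to 0.17, edgeR adjusted p = 0.657), and 0.02 without WT 1. *Rbm3* (ENSMUSG00000031167, chrX:8138975-8145880, minus strand) was at 139, 133 and 137 CPM in WT and at 133, 135 and 127 CPM in *ISM1*-/- lungs. WT 1 was again highest and *ISM1*-/- 3 lowest, but only 1.09-fold apart. Its log2 fold change was -0.05 (SE 0.05, 95% interval -0.17 to 0.07, edgeR adjusted p = 0.750), the narrowest interval of the members. The opposite-strand gene *Rbm3os* overlaps *Rbm3*, with a mean of 37.8 counts.

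**Figure D1:**
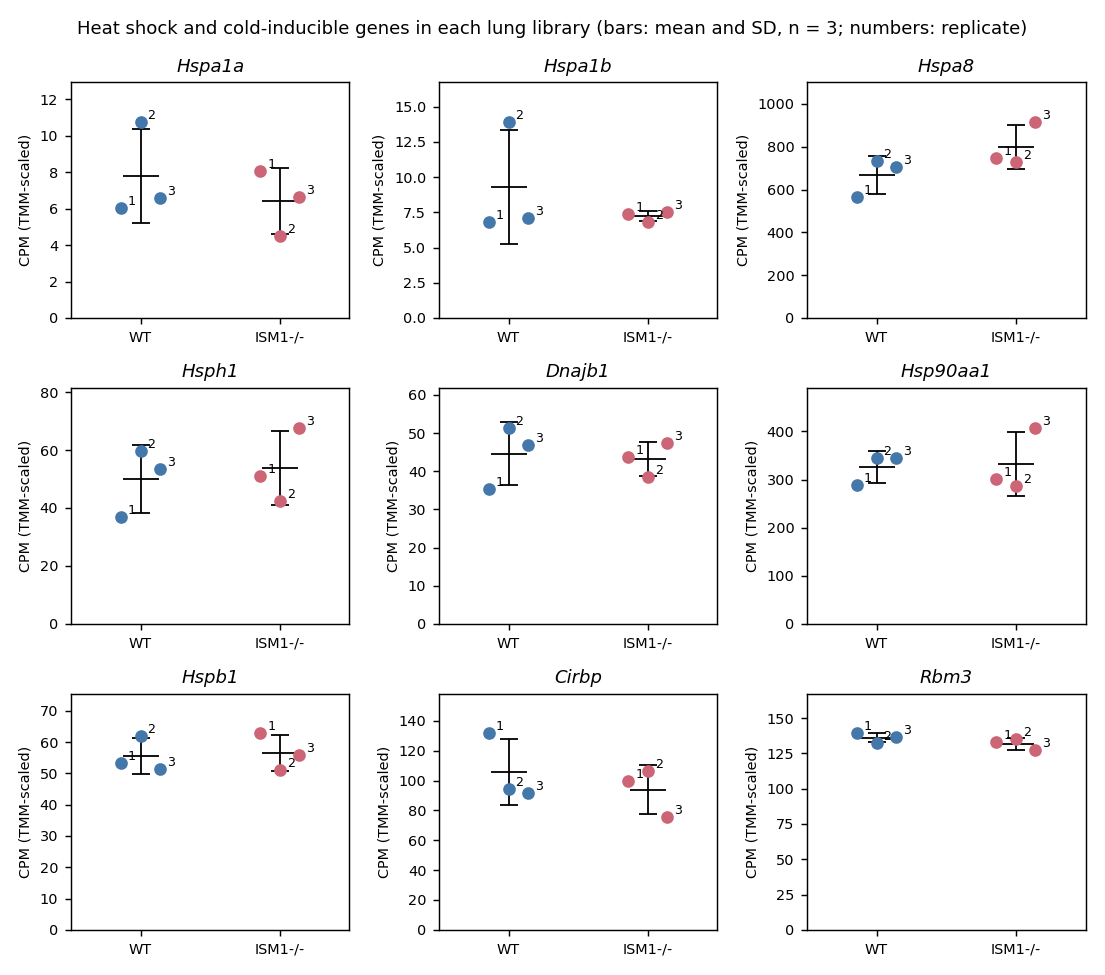
TMM-scaled CPM (y axes, from 0) of the 9 genes in each lung library, with WT in blue and *ISM1*-/- in red, the replicate number beside each point, and the mean and SD (n = 3) as a horizontal line and bar. The genotypes overlap in every panel, and *Rbm3* lies between 127 and 139 CPM in all libraries.

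**Figure D2:**
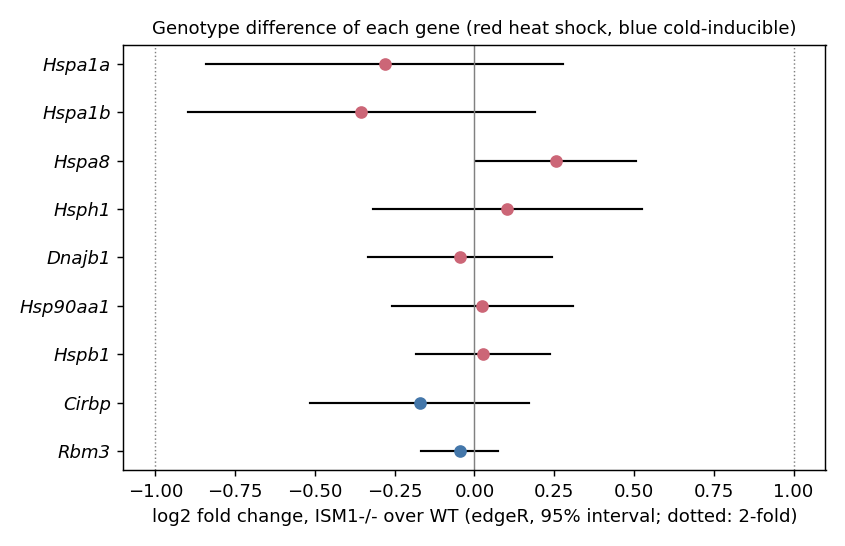
Log2 fold change (x axis, *ISM1*-/- over WT, edgeR) of each gene, as a point with its 95% interval, with heat shock genes in red, cold-inducible genes in blue and dotted lines at a 2-fold change. All intervals lie inside the dotted lines, and that of *Hspa8* ends at 0.00.

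The 95% intervals also show which differences were not resolved. Each holds for 1 gene alone, with an SE derived from the statistic of the quasi-likelihood test. The SE depends on the filter: for *Hspa1a* it was 0.25, and 0.17 without a filter on low counts. The widest interval belonged to *Hspa1a*, from -0.84 to 0.28, and the lowest bound to *Hspa1b*, from -0.90 to 0.19, both from uncertain counts. A 2-fold rise or fall of any member lay outside its interval. For *Rbm3* the fold lay between 0.890 and 1.05, and for *Hspb1* between 0.880 and 1.18.

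Levels of different genes can be compared only per length, for which the deposited FPKM values (fragments scaled by transcript length and library size) were used. Over the 6 libraries *Hspa8* was the highest member, with a mean of 596 FPKM (462 to 735), followed by *Hsp90aa1* with 277 FPKM (242 to 339). *Cirbp*, with 131 FPKM (97.1 to 173), and *Rbm3*, with 96.0 FPKM (89.8 to 100.1), came next, and their ranges overlapped. *Hspb1* followed with 61.2 FPKM (55.9 to 68.9), *Hsph1* with 26.6 FPKM (19.1 to 34.3) and *Dnajb1* with 15.0 FPKM (12.1 to 17.6), each in a range of its own. The stress-inducible pair was lowest and its ranges overlapped, with 2.95 FPKM (2.43 to 4.98) for *Hspa1b* and 2.40 FPKM (1.52 to 3.64) for *Hspa1a*. The inducible HSP70 genes were thus far below the constitutive HSP70 gene in every library.

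While genotype did not separate the members, individual libraries did, in both genotypes. Each mouse gave 1 library, so differences between mice cannot be told apart from those of dissection, handling or library preparation. WT 2 was the highest library for 3 of the 7 heat shock genes and among the highest 2 for 6. *ISM1*-/- 3 was the highest for another 3 and among the highest 2 for 5. At the other end, WT 1 was lowest for 4 and *ISM1*-/- 2 for the remaining 3, and each was among the lowest 2 for 6 of the 7. The mean of the 7 genes, each as log2 CPM minus its own mean over the 6 libraries, was 0.31 in WT 2, 0.15 in *ISM1*-/- 3, 0.03 in *ISM1*-/- 1, -0.02 in WT 3, -0.22 in *ISM1*-/- 2 and -0.25 in WT 1. The first place of WT 2 came from the near-identical *Hspa1a* and *Hspa1b*, whose counts are uncertain: over the other 5 genes the mean was 0.24 in *ISM1*-/- 3, 0.14 in WT 2, 0.02 in *ISM1*-/- 1, 0.02 in WT 3, -0.15 in *ISM1*-/- 2 and -0.27 in WT 1. Each genotype thus held a library near the top of the order and another near its bottom. For the cold-inducible genes WT 1 was highest and *ISM1*-/- 3 lowest for both, with means of 0.24 and -0.23 on the same scale. These means came mainly from *Cirbp*, at 0.42 and -0.39, while *Rbm3* was at 0.05 and -0.07. WT 2, high in heat shock genes, was at -0.04 in cold-inducible genes. The log2 difference of *Hsph1* minus *Cirbp* in CPM, which does not depend on the library scaling, was -1.83, -0.67 and -0.77 in WT and -0.97, -1.32 and -0.15 in *ISM1*-/- lungs. WT 1 and *ISM1*-/- 2 were at 1 end and *ISM1*-/- 3 at the other. The genes of this difference and the next are members already ranked above, so their orders are not separate support. The same difference for *Hspa1b* minus *Cirbp* was -4.26, -2.75 and -3.67 in WT and -3.74, -3.94 and -3.30 in *ISM1*-/- lungs, with WT 1 and *ISM1*-/- 2 lowest but WT 2 highest. With the library totals alone as the scaling, the full order of libraries was the same for 6 of the 9 members and changed for *Hspa1a*, *Dnajb1* and *Hsp90aa1*.

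**Figure D3:**
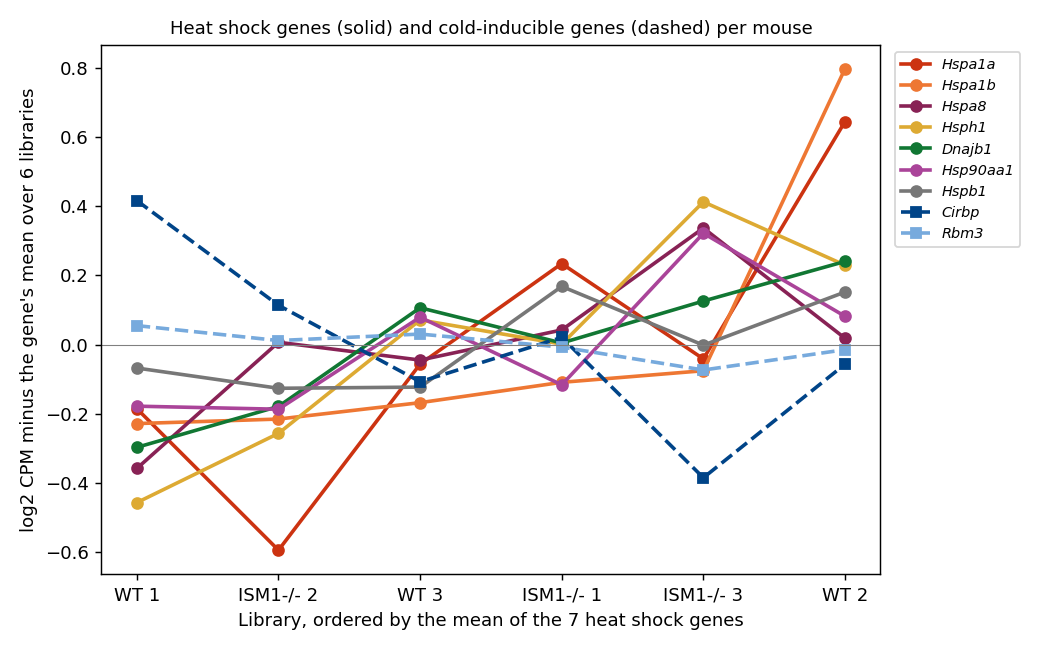
Log2 CPM of each gene minus its mean over 6 libraries (y axis), with libraries ordered from left to right by the mean of the 7 heat shock genes (x axis), heat shock genes as solid and cold-inducible genes as dashed lines. WT 1 and *ISM1*-/- 2 are at the left and *ISM1*-/- 3 and WT 2 at the right, and *Cirbp* is highest in WT 1 and lowest in *ISM1*-/- 3.

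The spread between libraries of 1 genotype was large for genes of this level. The pooled within-genotype SD of log2 CPM was 0.35 for *Hsph1*, at the 99.1th percentile of the 5247 genes with a mean CPM within 2-fold of it, whose median SD was 0.08. *Cirbp*, with an SD of 0.28, was at the 98.8th percentile, *Hspa1b*, with 0.41, at the 97.5th, and *Hspa1a*, with 0.44, at the 97.4th. *Hsp90aa1* (0.22), *Dnajb1* (0.23) and *Hspa8* (0.19) lay at the 97.0th, 96.5th and 91.8th percentile and *Hspb1* (0.15) at the 87.5th. *Rbm3* was the exception, with an SD of 0.04 at the 11.5th percentile.

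The 5 genes most like the mean heat shock profile were taken from 10824 genes, each at or above 10 CPM on average, by the root mean square difference of centred log2 CPM over the 6 libraries. They were *Nepro* (0.06), *Il33* (0.08), *Chchd4* (0.08), *Lrp2* (0.09) and *Trib2* (0.09), beside a median of 0.21 over all candidates. *Nepro*, for example, was at 10.9, 14.9 and 12.5 CPM in WT and at 13.0, 11.7 and 14.4 CPM in *ISM1*-/- lungs, with the same highest and lowest libraries as *Dnajb1*. *Il33*, which encodes an alarmin cytokine of the lung epithelium, was at 81.7, 109 and 91.8 CPM in WT and at 104, 89.5 and 108 CPM in *ISM1*-/- lungs. The genes most like the mean of *Cirbp* and *Rbm3* were *Polr2a*, the largest subunit of RNA polymerase II (0.03), *Zfp414* (0.03), *9930014A18Rik* (0.04), *Hsf4*, a heat shock factor (0.04), and *Tcf7l2* (0.04), beside a median of 0.17. *Polr2a* was at 273, 222 and 219 CPM in WT and at 226, 230 and 202 CPM in *ISM1*-/- lungs. None of these 10 genes was called between the genotypes, and the lowest edgeR adjusted p was 0.446, for *9930014A18Rik*. They were picked for likeness to profiles of members that were not called, over the same libraries. Their lack of calls and their shared highest and lowest libraries thus follow largely from the selection.

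Stress-responsive genes of other kinds were also looked at in WT 1 and *ISM1*-/- 2, the 2 libraries lowest in heat shock genes. Of 19 immediate early genes, 9 were higher in both of these libraries than in the other 4 (*Fos*, *Fosb*, *Junb*, *Egr1*, *Egr2*, *Egr3*, *Ier2*, *Nr4a1* and *Zfp36*), 2 were lower in both (*Klf4* and *Klf6*) and 8 were neither. Of 10 glucocorticoid response genes, 0 were higher in both, 2 were lower in both (*Per1* and *Tsc22d3*) and 8 were neither. Over all genes tested 5.29% were higher and 5.82% lower in both. The libraries and the genes of this tally were chosen after their values were seen, and it was not tested. *Egr1*, a transcription factor induced within minutes of many stimuli, was at 113, 26.9 and 22.3 CPM in WT and at 23.1, 75.9 and 22.1 CPM in *ISM1*-/- lungs. *Fos*, another immediate early gene, was at 41.4, 16.4 and 14.8 CPM in WT and at 12.7, 33.4 and 14.9 CPM in *ISM1*-/- lungs. *Klf4*, in the opposite direction, was at 111, 198 and 162 CPM in WT and at 144, 139 and 195 CPM in *ISM1*-/- lungs. *Per1*, a clock gene that glucocorticoids also induce, was at 74.8, 199 and 194 CPM in WT and at 108, 72.6 and 154 CPM in *ISM1*-/- lungs. *Tsc22d3* (GILZ), a glucocorticoid target, was at 101, 165 and 202 CPM in WT and at 116, 111 and 242 CPM in *ISM1*-/- lungs. *Egr1*, *Fos*, *Per1* and *Tsc22d3* were not called between the genotypes (edgeR adjusted p = 0.816 for *Egr1*, 0.842 for *Fos*, 0.557 for *Per1* and 0.999 for *Tsc22d3*).

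**Figure D4:**
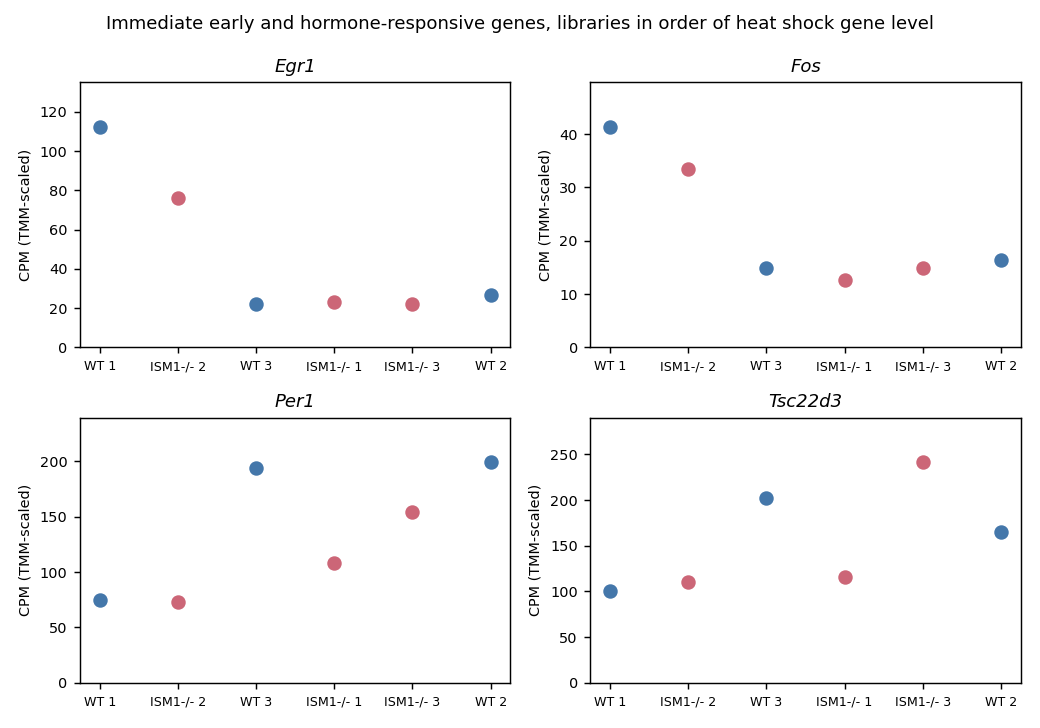
TMM-scaled CPM (y axes, from 0) of *Egr1*, *Fos*, *Per1* and *Tsc22d3*, with libraries in the order of their mean heat shock gene level (x axes), WT in blue and *ISM1*-/- in red. *Egr1* and *Fos* are highest in the 2 libraries at the left, WT 1 and *ISM1*-/- 2, in which *Per1* and *Tsc22d3* are lowest, and the genes were picked for that order, shown by 9 of 19 immediate early and 2 of 10 glucocorticoid response genes.

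Markers of other cells also moved between these libraries, and their part in the order of libraries was not tested. The summed level of 6 erythroid markers, led by *Hbb-bs* and *Hba-a1*, was 259, 135 and 445 CPM in WT and 148, 625 and 160 CPM in *ISM1*-/- lungs, lowest in the 3 libraries with the highest heat shock mean, and 0 of 6 were called. The 16 cardiomyocyte markers, led by *Myh6* and *Actc1*, summed to 1960, 666 and 788 CPM in WT and to 373, 510 and 719 CPM in *ISM1*-/- lungs, so WT 1 stood apart. All 16 estimates were lower in *ISM1*-/- lungs, with a median log2 fold change of -1.01. Of the 16, 1, *Myl7*, was called lower, and 5 had no overlap between genotypes, beside 21.6% of all genes. The 10 adipocyte markers ranged from 250.1 to 319 CPM in WT and from 51.9 to 143 CPM in *ISM1*-/- lungs, with 9 of 10 called lower. The 8 neutrophil markers summed to 198 to 223 CPM in WT and 223 to 280.1 CPM in *ISM1*-/- lungs, with 4 called higher. The most abundant, *Lcn2*, was not called, at 96.9 to 113 and 101 to 116 CPM. The only lower estimate was that of *Ltf*, not called. The 8 B cell and plasma cell markers summed to 276 to 293 and 381 to 439 CPM, with 5 called higher. The largest part of this sum was *Xbp1*, also an endoplasmic reticulum stress gene, at 174 to 178 and 179 to 196 CPM and not called. These sums do not stand for the named cells alone. Of the 12 lung markers, *Scgb1a1* and *Foxj1*, of club and ciliated cells, were called lower. Over all genes tested 1.38% were called higher and 3.34% lower. No marker was at 0 in all libraries.

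The rest of the chaperone system, in 10 lists, likewise held few calls. Of 107 genes tested, 1 was higher and 2 were lower in *ISM1*-/- lungs (2.80% called, beside 4.72% of all genes), and 23 had no overlap between genotypes (21.5%, beside 21.6% of all genes). The list of heat shock factors and their regulators, which also holds *Hif1an*, not a heat shock regulator, had 0 of 7 called. *Hsf1* itself was at 48.3, 48.0 and 46.9 CPM in WT and at 51.7, 50.1 and 42.7 CPM in *ISM1*-/- lungs, with a log2 fold change of 0.01 (edgeR adjusted p = 0.958), and *Hsbp1*, a negative regulator of HSF1, had the smallest p of the list (-0.08, edgeR adjusted p = 0.641). *Hsf5* was below the filter.

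The gene called higher was *Hspa12b*, a distant HSP70 relative of endothelial cells. It was at 83.3, 78.9 and 80.9 CPM in WT and at 98.1, 105 and 105 CPM in *ISM1*-/- lungs, without overlap, with a log2 fold change of 0.34 (SE 0.06, edgeR adjusted p = 0.0214). The other 7 genes of its list, of HSP70 and HSP110 chaperones, were not called. None of 11 J-domain co-chaperones was called, with the smallest p for *Dnaja4* (log2 fold change -0.20, edgeR adjusted p = 0.252). None of 9 nucleotide exchange and adaptor genes was called either, with the smallest p for *St13*, the HSP70-interacting protein (0.17, edgeR adjusted p = 0.339).

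Among HSP90 and its co-chaperones 0 of 13 were called, although 11 estimates were higher in *ISM1*-/- lungs, with a median log2 fold change of 0.04. The smallest p was that of *Ahsa2*, a relative of the HSP90 ATPase activator (0.23, edgeR adjusted p = 0.305). The cytosolic chaperonin, which folds actin and tubulin, had 8 of 8 estimates higher, with a median of 0.05 and 0 called (smallest edgeR adjusted p = 0.641, *Cct8*). The mitochondrial chaperones had 0 of 8 called and 7 estimates lower, with a median of -0.02 and the smallest p for *Dnaja3* (-0.09, edgeR adjusted p = 0.514).

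The small heat shock proteins held both genes called lower. *Hspb6*, a small heat shock protein of muscle, was at 15.1, 10.8 and 10.5 CPM in WT and at 7.90, 8.95 and 7.94 CPM in *ISM1*-/- lungs, with a log2 fold change of -0.55 (SE 0.15, edgeR adjusted p = 0.0865). Its highest library, WT 1, was also the library with the highest summed cardiomyocyte markers, 1960 CPM, and the part of these cells in its level was not tested. *Cryaa*, an alpha-crystallin best known from the lens, was low, at 1.38, 1.93 and 1.60 CPM in WT and at 0.822, 0.974 and 0.640 CPM in *ISM1*-/- lungs, with a log2 fold change of -1.01 (SE 0.25, edgeR adjusted p = 0.0682). The other 5 genes tested were not called, and *Hspb3* was below the filter.

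In the endoplasmic reticulum, chaperones and stress genes showed 17 of 19 estimates higher in *ISM1*-/- lungs and 10 of 19 without overlap between genotypes (beside 21.6% of all genes), but 0 of 19 were called. The median log2 fold change was 0.12. *Pdia4*, a disulfide isomerase, had the smallest p. It was at 96.1, 98.2 and 96.4 CPM in WT and at 107, 106 and 114 CPM in *ISM1*-/- lungs (log2 fold change 0.17, SE 0.06, edgeR adjusted p = 0.155). The list of glycine-rich and SR RNA-binding proteins, which holds relatives of CIRBP and RBM3, had 0 of 17 called and a median of 0.02. Its smallest p was that of *Tra2a* (0.16, edgeR adjusted p = 0.512). The list also holds *Clk1* and *Clk4*, which are protein kinases and not such relatives.

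The clock list gave more calls in the same fit. Of 18 core clock and clock output genes, 6 were higher and 3 lower in *ISM1*-/- lungs (50% called, beside 4.72% of all genes), and 10 had no overlap (55.6%, beside 21.6% of all genes). The median log2 fold change was 0.31. *Npas2*, an activator of the clock, was at 7.61, 7.27 and 8.53 CPM in WT and at 3.24, 3.66 and 2.77 CPM in *ISM1*-/- lungs (log2 fold change -1.27, SE 0.14, edgeR adjusted p = 0.00739). *Arntl* (BMAL1), another activator of the clock, had a log2 fold change of -0.83 (SE 0.09, edgeR adjusted p = 0.00739). *Dbp*, an output transcription factor of the clock, was higher, with a log2 fold change of 0.69 (SE 0.14, edgeR adjusted p = 0.0366), as was *Per2*, a repressor of the clock whose transcript also responds to body temperature (0.62, SE 0.12, edgeR adjusted p = 0.0363). The time of day at which each lung was taken is not given in the sources used here.

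Of 19 immediate early genes, 1 was called, a share near the 4.72% of all genes tested. It was *Ier3*, an early response gene that was higher by 0.31 (SE 0.08, edgeR adjusted p = 0.0849). Of 10 glucocorticoid response genes, 1 was called higher and 1 lower, beside 1.38% and 3.34% of all genes. *Zbtb16* (PLZF), a transcription factor, was higher and *Mt1*, a metallothionein that binds zinc, was lower. *Zbtb16* was at 23.2, 13.1 and 13.2 CPM in WT and at 58.3, 66.6 and 285 CPM in *ISM1*-/- lungs (log2 fold change 3.05, SE 0.57, edgeR adjusted p = 0.0297), and its highest library was *ISM1*-/- 3, the highest also for *Hspa8*, *Hsph1* and *Hsp90aa1*. *Mt1* was at 22.0, 21.4 and 22.3 CPM in WT and at 16.1, 15.4 and 13.5 CPM in *ISM1*-/- lungs (log2 fold change -0.55, SE 0.08, edgeR adjusted p = 0.0163).

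**Figure D5:**
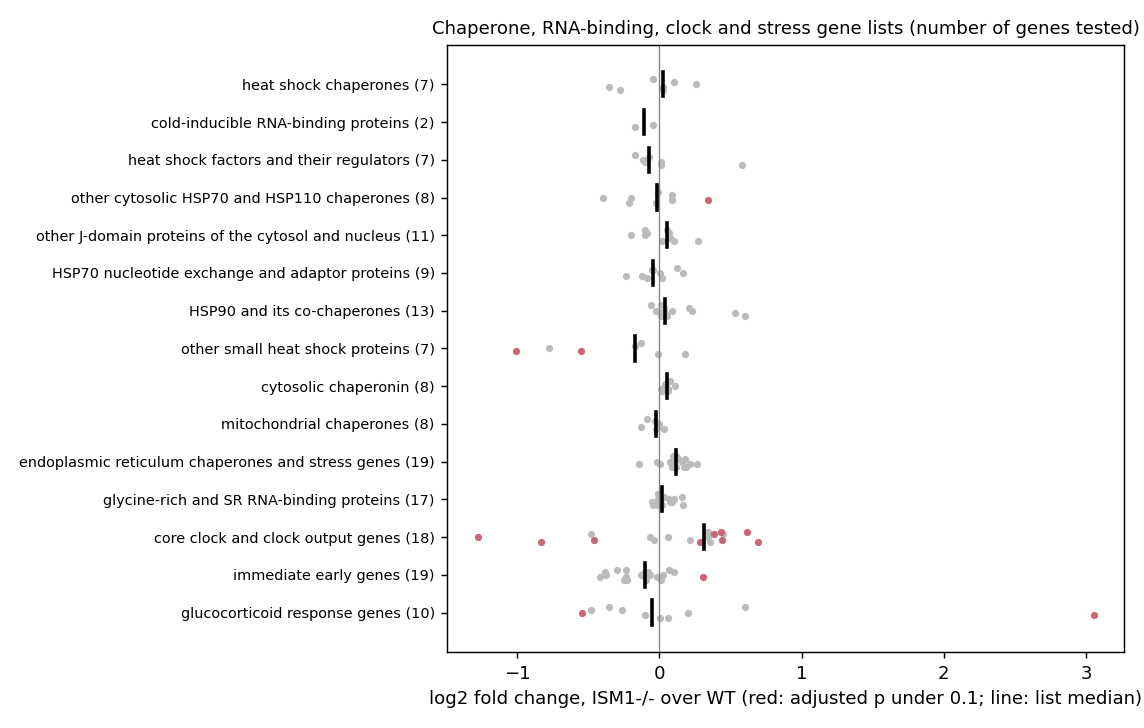
Log2 fold change (x axis, *ISM1*-/- over WT, edgeR) of each gene of the member, chaperone, RNA-binding, clock and stress lists (y axis, number of genes tested in parentheses), with genes at an adjusted p under 0.1 in red, other genes in grey and the list median as a black line. The lists of the 7 heat shock and 2 cold-inducible genes hold no red point, while the clock list holds 9.

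In the 250 bases before the RefSeq start, a pair of alternating heat shock units (GAANNTTC or TTCNNGAA, both strands searched) was found for 4 of the 6 members with a promoter entry, *Hspa1a*, *Hspa1b*, *Hsph1* and *Hspb1*, and in 14.5% of 27025 genes. No member window held a run of 3 units or more, found in 0.514% of genes. The cold element letters (TCCCCGCC, both strands, not overlapping the pairs in the members shown) were found for *Cirbp*, *Hspa1a* and *Hspa1b*, and in 5.37% of genes. *Hspa8*, *Hsp90aa1* and *Rbm3* had no entry. A match is a description of these letters and not a measured binding site.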

How the data were processed

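RNA of perfused whole lungs from 3 WT and 3 *ISM1*-/- mice, grouped by the labels, was sequenced by the authors in strand-specific paired-end libraries. They mapped reads to GRCm38 (mm10) with STAR. They deposited raw counts per gene. The authors also deposited FPKM, used here only for levels per length. Which program counted the reads is not given in the sources used here.

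Total counts per library were 37606133 to 42345042. Counts were tested in R 4.3.3 with edgeR 4.0.16 (quasi-likelihood test, TMM scaling, at least 0.5 CPM in at least 1 library, Benjamini-Hochberg adjustment over 18689 genes, called at an adjusted p under 0.1), as tested beforehand on simulated data. CPM are TMM-scaled, with a pseudocount of 0.1 on the log2 scale for profiles and spreads. Each mouse gave 1 library, so n = 3 per genotype, and no libraries agreed within sampling noise. DESeq2 1.42.0 and other filters, scalings, thresholds and left-out libraries were alternatives. Promoters were searched with Python 3.11.15, and the HSP70 transcripts (GENCODE M21) aligned with Biopython 1.88.

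The members and lists were chosen with earlier results of these data known. Named were all members, *Ism1*, up to 4 called genes of each pathway or context list with the largest change or else the gene with the smallest p, the 5 genes most like each profile, leading markers, and genes overlapping a member. *Hsf1*, *Hif1an*, *Clk1*, *Clk4*, *Myl7*, *Scgb1a1* and *Foxj1* are named outside this rule, after their values were seen. So are the immediate early and glucocorticoid genes of the tally of libraries, and genes below the filter.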

Additional observations from a re-analysis of the deposited data

How the results depend on the processing

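The number of members called was 0 with DESeq2, RLE size factors, library totals, both stricter filters and an adjusted p under 0.05, and 1 (*Hspa8*) without a filter on low counts, where 1632 genes were called in all beside 882. The cause was not tested. With each library left out in turn, 0 members were called, and 150 to 1470 genes in all (150 without WT 2, 247 without *ISM1*-/- 1, 261 without *ISM1*-/- 2, 341 without WT 3 and 1470 without *ISM1*-/- 3). The log2 fold change then ranged from -0.48 to 0.029 for *Hspa1a*, -0.53 to 0.068 for *Hspa1b*, -0.10 to 0.25 for *Hsph1*, -0.18 to 0.072 for *Dnajb1*, -0.15 to 0.12 for *Hsp90aa1*, -0.053 to 0.12 for *Hspb1* and -0.27 to 0.016 for *Cirbp*, so the sign of these estimates depends on single mice, while *Hspa8* (0.15 to 0.33) and *Rbm3* (-0.06 to -0.02) kept theirs. Under the other alternatives no member changed sign, and the number of genes called in the pathway and context lists was 15 under each scaling. Same-numbered mice are different animals, and the correlations of their deviations were 0.00, 0.01 and 0.20. With the replicate block 1105 genes and 0 members were called. In the heat shock mean, WT 2 lay above *ISM1*-/- 3 by 0.16 on the log2 scale, and the difference was -0.095 with *Hspa1a* and *Hspa1b* left out, an alternative chosen after seeing the data. The precision differs by member, and differences inside the 95% intervals of the members were not resolved.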
